A study of Mus musculus with 7 samples.

Results

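The 9 genes described here encode interferon-gamma-induced GTPases of the mouse: the guanylate-binding protein genes Gbp2, Gbp3, Gbp5, Gbp6 and Gbp7, and the immunity-related GTPase genes Irgm1, Irgm2, Igtp and Iigp1. They were taken by gene symbol from a count table of 26130 genes, and each of the 9 symbols was found there once. All 9 also passed the filter on low counts, which kept 13665 genes for testing.

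Guanylate-binding proteins are large GTPases that assemble on the vacuoles of intracellular pathogens and on bacterial surfaces coated with lipopolysaccharide (LPS), and they help caspase-11 to detect LPS in the cytosol. Immunity-related GTPases fall into effectors such as Iigp1 (Irga6), which coat and disrupt pathogen vacuoles, and the regulators Irgm1, Irgm2 and Igtp (Irgm3), which sit on host membranes and hold the effectors inactive there. Interferon-gamma induces transcription of both families through promoter elements called GAS and ISRE, the second of which is bound by IRF1.

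Polyadenylated RNA was sequenced from lung cells of mice carrying both an Fth1-mScarlet reporter of the ferritin heavy chain gene and Lyz2GFP, a green reporter of the myeloid lysozyme gene. In all groups the cells were sorted as Lyz2GFP+CD11b+Ly6C+Ly6G-, a gate that takes monocytes and related myeloid cells and leaves out neutrophils. Of the 7 libraries, 2 came from untreated mice, from cells with low mScarlet (untreated Fth1-low). After LPS, 2 came from cells with low mScarlet (LPS Fth1-low) and 3 from cells with high mScarlet (LPS Fth1-high). LPS-treated mice had received 20 µg of Escherichia coli LPS in 50 µl into the trachea and were killed 3 days later. The labels give neither age nor sex, and they do not say whether replicates came from different mice. P-values therefore describe the spread among libraries, part of which may be technical. Because untreated cells with high mScarlet were not analysed here, setting LPS Fth1-high against untreated cells mixes treatment and gate.

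Depth was uneven. LPS Fth1-low replicate 1 held 637787 counts, of which 19.4% came from ribosomal RNA genes, and the other 6 libraries held between 10459703 and 27997007. It also stood apart over all tested genes, with Pearson correlations of log2 CPM of 0.816 to 0.863 with the other libraries, against 0.848 to 0.980 among the other 6. Even so, each of the 9 genes had between 62 and 569 counts in that shallow library, and the smallest count of any of them in any library was 25, for Iigp1 in untreated replicate 2. Levels are given below as CPM, counts per 1000000 counts of a library after TMM scaling between libraries. Fth1 transcripts stood at 1786 and 1672 CPM in the untreated libraries and at 2969.9 and 4825 CPM in LPS Fth1-low replicates 1 and 2. In LPS Fth1-high replicates 1 to 3 they stood at 13231, 20999.8 and 20473 CPM. After LPS their order thus followed the gate, while within the Fth1-low gate both LPS libraries lay above both untreated ones. Lyz2 (6140.2 to 12500.4 CPM), Itgam, which encodes CD11b (750.0 to 2109 CPM), and Ly6c2 (562 to 2979.9 CPM) were abundant in all 7 libraries, and Ly6g, the defining neutrophil marker, had at most 2 counts in any.

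The promoters of the GTPase genes are shown first because both elements could be sought in them. RefSeq promoter sequences of build GRCm38.p6 were matched for 7 of the 9 genes, all but Gbp6 and Iigp1, and the 250 bases before the start site were searched on both strands for a GAS (TTCNNNGAA) and for an ISRE core (GAAA, any 2 bases, GAAA). The sequences below run 5′ to 3′ on the strand of the gene, with matches to either motif in capitals. Gbp2 (chr3:142620594-142620623, plus strand) and Irgm1 (chr11:48871428-48871457, minus strand) are shown as 30 bases around the ISRE, and Gbp7 (chr3:142530086-142530335, plus strand), Irgm2 (chr11:58214727-58214976, plus strand) and Igtp (chr11:58199306-58199555, plus strand) as the full 250 bases.
Gbp2: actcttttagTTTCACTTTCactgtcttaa
Irgm1: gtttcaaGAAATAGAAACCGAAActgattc
Gbp7: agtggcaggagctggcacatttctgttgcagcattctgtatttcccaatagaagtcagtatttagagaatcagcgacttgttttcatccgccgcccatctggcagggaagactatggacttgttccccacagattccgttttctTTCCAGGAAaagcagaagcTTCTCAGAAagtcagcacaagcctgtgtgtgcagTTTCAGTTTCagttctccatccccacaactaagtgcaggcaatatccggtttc
Irgm2: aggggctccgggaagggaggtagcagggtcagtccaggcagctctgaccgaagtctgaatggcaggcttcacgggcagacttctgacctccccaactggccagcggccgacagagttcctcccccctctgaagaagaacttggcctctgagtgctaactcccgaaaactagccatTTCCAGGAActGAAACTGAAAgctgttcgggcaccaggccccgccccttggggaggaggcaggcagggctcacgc
Igtp: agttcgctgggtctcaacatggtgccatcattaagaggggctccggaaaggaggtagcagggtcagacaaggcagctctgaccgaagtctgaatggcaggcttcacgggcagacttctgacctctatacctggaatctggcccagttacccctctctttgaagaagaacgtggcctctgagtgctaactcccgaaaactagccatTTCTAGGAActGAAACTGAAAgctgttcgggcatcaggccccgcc

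An ISRE core lay within the 250 bases in 7 of these 7 genes, and 2.98% of 32851 RefSeq promoters held one. Measured from the RefSeq start site, it began 59 bases before the start site in Gbp2, 53 in Gbp7, 64 in Irgm2 and 34 in Igtp, whereas Irgm1 held overlapping matches at 30 and 24 bases. In GENCODE, transcripts of Gbp2 and Irgm1 begin further upstream, and 61 and 250 of the 250 window bases lie in annotated exons, with the matches inside the transcribed part. The GENCODE genes Gbp5 and Irgm2 also begin before their windows, at 142493978 and 58199618 against window starts of 142496684 and 58214727. A GAS lay in 4 of the 7, Gbp5, Gbp7, Irgm2 and Igtp, against 7.02% of all promoters, and these 4 held both motifs, which 0.332% of all promoters did. In Irgm2 and Igtp the GAS and the ISRE stood in the same arrangement, separated by a pair of bases. The windows of these neighbouring genes shared a longest common stretch of 55 bases and 172 bases in matching blocks of 8 or more. Gbp3 has 2 annotated start sites, and the window of the second held neither motif. A match describes letters only and does not show that a factor was bound in these cells.

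In the GENCODE annotation of GRCm38 the genes lie in 4 chromosomal neighbourhoods. Gbp5 (142493978 to 142522344), Gbp7 (142530342 to 142550149), Gbp3 (142560026 to 142573209) and Gbp2 (142620602 to 142638008) follow each other on the plus strand of chromosome 3. Gbp6 stands in the second Gbp cluster, on the minus strand of chromosome 5 (105270702 to 105293698). Chromosome 11 holds Irgm1 on the minus strand (48861968 to 48871683) and, 9338 kb further on, Igtp (58199556 to 58207591) and Irgm2 (58199618 to 58222782), which overlap on the plus strand. Iigp1 lies on the plus strand of chromosome 18 (60376027 to 60392634).

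Copies of these genes resemble each other, which bears on how reads could be counted. Of the distinct 58-base stretches in the transcripts of Gbp6, 58 bases being the read length, 69.6% also occurred in transcripts of another gene, including Gbp10 (44.0%) and Gm43302, an annotated gene that overlaps Gbp6 and has no row in the count table (63.9%). For Gbp7 the share was 12.2%, mainly with a pseudogene, for Igtp 10.3% and for Irgm2 6.69%, mainly with each other's transcripts, and for the other 5 genes it was at most 3.08%. How reads that match several genes were assigned is not given in the sources used here, so the level of Gbp6 is uncertain beyond its replicate error.

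After LPS, transcripts of the GTPases were higher in both Fth1 gates, by amounts that varied among the genes. In Fth1-low cells 8 of 9 passed the test as higher than in untreated Fth1-low cells (edgeR quasi-likelihood test, Benjamini-Hochberg adjusted p under 0.05, the meaning of a call throughout), against 2.99% of all tested genes. In LPS Fth1-high cells 9 of 9 did, against 12.4%. Untreated cells are the same 2 libraries in both comparisons. None of the 9 was lower in either, against 0.629% and 11.9% of all tested genes. For all 9 every LPS library was above both untreated libraries, as for 16.3% of tested genes in the Fth1-low gate and 30.3% in the Fth1-high gate, and for none was every LPS library below them, as for 23.2% and 27.8%. Their median log2 difference was 2.32 in the first comparison and 2.85 in the second, beside medians of -0.05 and 0.03 over all tested genes. Between the LPS gates the picture was mixed: 1 of 9, Gbp6, was called higher in Fth1-high cells, against 3.68% of tested genes, 0 of 9 were called lower, against 4.57%, and the median log2 difference was 0.11 beside 0.04 over all genes. In none of the 3 comparisons was a gene of the 9 lower at an unadjusted p under 0.05, nor called lower by DESeq2 or limma-voom.

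**Figure D1:**
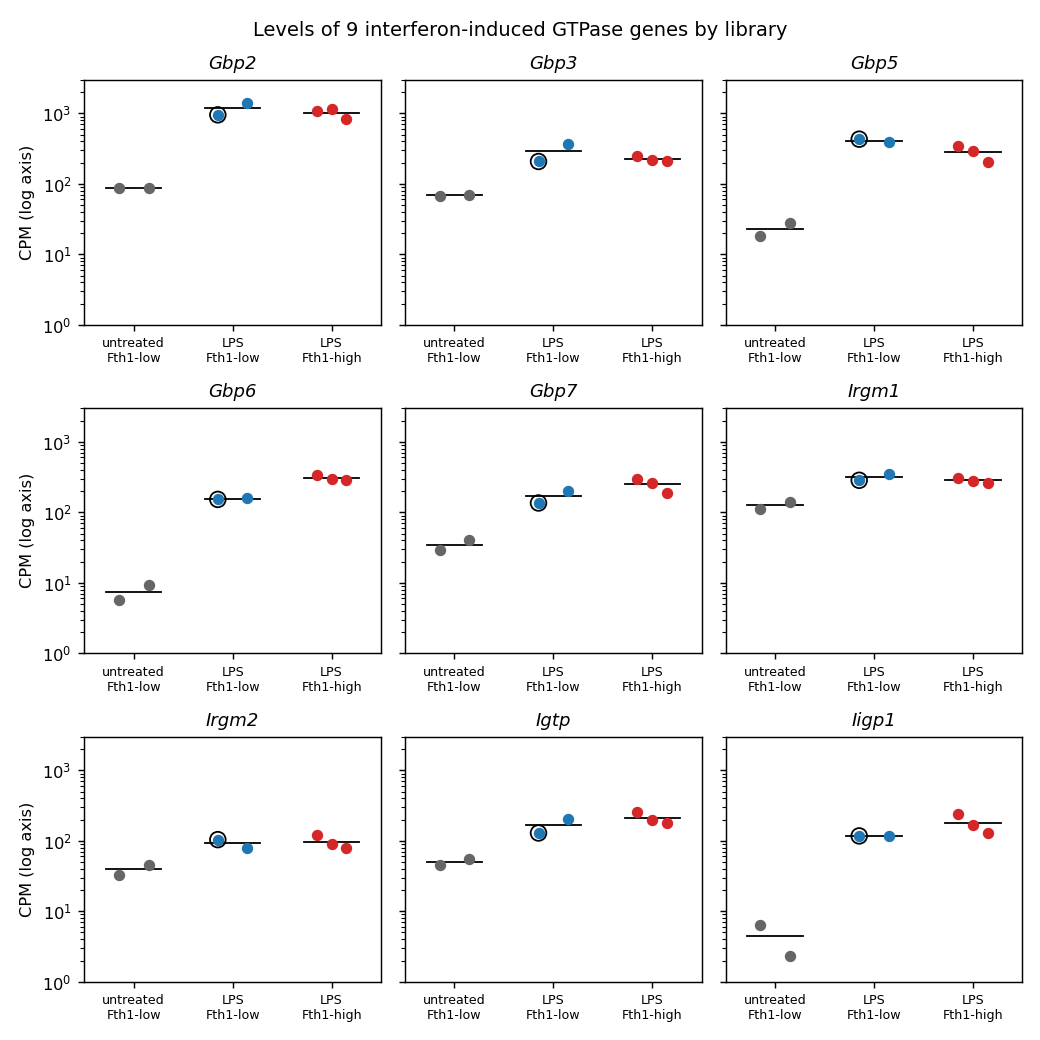
Levels of the 9 GTPase genes in CPM on a log axis, 1 point per library and a line at each group's mean; the ringed point is the shallow LPS Fth1-low replicate 1. In every panel all 5 LPS libraries lie above both untreated libraries, while the LPS gates overlap for all genes but Gbp5, Gbp6 and Iigp1.

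Gbp2, which mouse studies place on Toxoplasma vacuoles and in the caspase-11 response to LPS, was the most abundant of the 9 after LPS. Its level was 86.1 and 87.3 CPM in the untreated libraries, 953 and 1409.6 CPM in LPS Fth1-low replicates 1 and 2, and 1070.4, 1155 and 821 CPM in LPS Fth1-high replicates 1 to 3. Both LPS groups lay far above the untreated one and overlapped each other. The gain over untreated cells was 13.7-fold in LPS Fth1-low cells (log2 3.77 ± 0.30 SE, adjusted p = 1.7e-04) and 11.7-fold in LPS Fth1-high cells (3.55 ± 0.29, adjusted p = 3.3e-05). Between the gates the log2 difference was -0.22 with a 95% interval from -0.78 to 0.33 (adjusted p = 0.67).

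Gbp3, its neighbour on chromosome 3, was nearly as abundant as Gbp2 before treatment, at 68.0 and 69.1 CPM. After LPS it stood at 208 and 369 CPM in Fth1-low and at 250.5, 216 and 209 CPM in Fth1-high cells. Again the LPS libraries did not overlap the untreated ones, and the gates overlapped. Gbp3 rose 4.27-fold in Fth1-low cells (log2 2.10 ± 0.28, adjusted p = 0.0032) and 3.28-fold in LPS Fth1-high over untreated cells (1.71 ± 0.26, adjusted p = 0.0013). Its difference between the gates was -0.38 (95% interval -0.94 to 0.18, adjusted p = 0.43). Gbp3 counts per 100 Gbp2 counts were 79.0 and 79.2 in untreated libraries and between 18.7 and 26.2 in the 5 LPS libraries.

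Gbp5, reported in mouse macrophages to promote assembly of the NLRP3 inflammasome, was measured at 18.3 and 28.1 CPM without treatment. In LPS Fth1-low cells it reached 430.3 and 393 CPM, and in LPS Fth1-high cells 345, 288 and 207 CPM. Here the gates did not overlap, Fth1-high being lower, as 17.1% of all tested genes also were. The log2 difference between gates was -0.55, however, with an interval from -1.15 to 0.04 and an adjusted p of 0.27, so it was not called. Over untreated cells Gbp5 rose 17.8-fold in Fth1-low (4.16 ± 0.33, adjusted p = 1.7e-04) and 12.1-fold in Fth1-high cells (3.60 ± 0.31, adjusted p = 4.6e-05).

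Gbp7, linked in mouse macrophages to NADPH oxidase assembly, had 29.2 and 40.0 CPM in untreated libraries. Its LPS levels were 136 and 204 CPM in Fth1-low and 296, 262 and 186 CPM in Fth1-high cells. The gates overlapped through LPS Fth1-high replicate 3, which lay below LPS Fth1-low replicate 2. Gbp7 rose 5.01-fold in Fth1-low (log2 2.32 ± 0.31, adjusted p = 0.0032) and 7.19-fold in LPS Fth1-high over untreated cells (2.85 ± 0.30, adjusted p = 1.5e-04). Its difference between gates was 0.52 (95% interval -0.10 to 1.14, adjusted p = 0.33).

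Gbp6 was the 1 gene called between the gates. It was low in untreated libraries, at 5.62 and 9.42 CPM, and reached 152 and 161 CPM in LPS Fth1-low and 342, 295.5 and 284 CPM in LPS Fth1-high cells. All 3 groups stood apart without overlap, in the order untreated, LPS Fth1-low, LPS Fth1-high. The rise over untreated cells was 21.2-fold in LPS Fth1-low (4.41 ± 0.30, adjusted p = 7.2e-05) and 41.5-fold in LPS Fth1-high cells (5.37 ± 0.30, adjusted p = 5.2e-06). Between gates it was 1.95-fold higher in Fth1-high cells (log2 0.97 ± 0.24, 95% interval 0.42 to 1.52, adjusted p = 0.041).

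That call rested on every LPS library. The adjusted p became 0.15 without LPS Fth1-low replicate 1, 0.11 without LPS Fth1-low replicate 2, and 0.097, 0.11 and 0.089 without LPS Fth1-high replicates 1, 2 and 3, whereas the log2 difference stayed between 0.88 and 1.02 with each library left out. Without either untreated library it was called. Since Gbp6 shares sequence with Gbp10, their counts were also summed, a choice made after the shared stretches had been counted. The sum differed between gates by 0.99 ± 0.24 on the log2 scale (adjusted p = 0.036). With 17.6 to 22.2 Gbp10 counts per 100 Gbp6 counts the sum is mostly Gbp6, so it could hardly differ from Gbp6 alone. Gm43302 has no row in the count table and could not be added. Summing all 6 Gbp genes of the chromosome 5 cluster (Gbp4, Gbp6, Gbp8, Gbp9, Gbp10 and Gbp11) gave 0.42 ± 0.28 (adjusted p = 0.44), no call, and summing the 5 of chromosome 3 (Gbp2, Gbp2b, Gbp3, Gbp5 and Gbp7) gave -0.22 ± 0.25 (adjusted p = 0.68).

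For Gbp6, ratios within a library show the same pattern without scaling between libraries, though Gbp2, the gene below the line, itself differed between gates by -0.22. Per 100 counts of Gbp2 there were 6.53 and 10.8 counts of Gbp6 in untreated, 16.0 and 11.4 in LPS Fth1-low, and 32.0, 25.6 and 34.6 in LPS Fth1-high libraries. Every Fth1-high library was thus above every other library. Counts of Gbp10 per 100 Gbp6 were between 17.6 and 22.2 in all 7 libraries. The LPS Fth1-low libraries, at 17.6 and 19.8, lay below the 3 LPS Fth1-high libraries, at 20.2 to 21.8, and the untreated ones, at 22.2 and 19.8, overlapped both. Iigp1 counts per 100 Gbp2 counts were 7.50 and 2.67 in untreated, 12.3 and 8.23 in LPS Fth1-low, and 22.3, 14.4 and 15.6 in LPS Fth1-high libraries, with the Fth1-high libraries again above the other 4. Gbp10 counts per 100 Gbp2 counts shared this order. They were 1.45 and 2.14 in untreated, 2.81 and 2.27 in LPS Fth1-low, and 6.99, 5.17 and 7.28 in LPS Fth1-high libraries. The ratios of Gbp3, Gbp4, Gbp5 and Gbp7 to Gbp2 did not share it. For Gbp7 these ratios were 33.9 and 45.8 in untreated, 14.2 and 14.5 in LPS Fth1-low, and 27.6, 22.7 and 22.7 in LPS Fth1-high libraries. Those of Gbp3 and Gbp5 overlapped between the LPS gates.

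**Figure D2:**
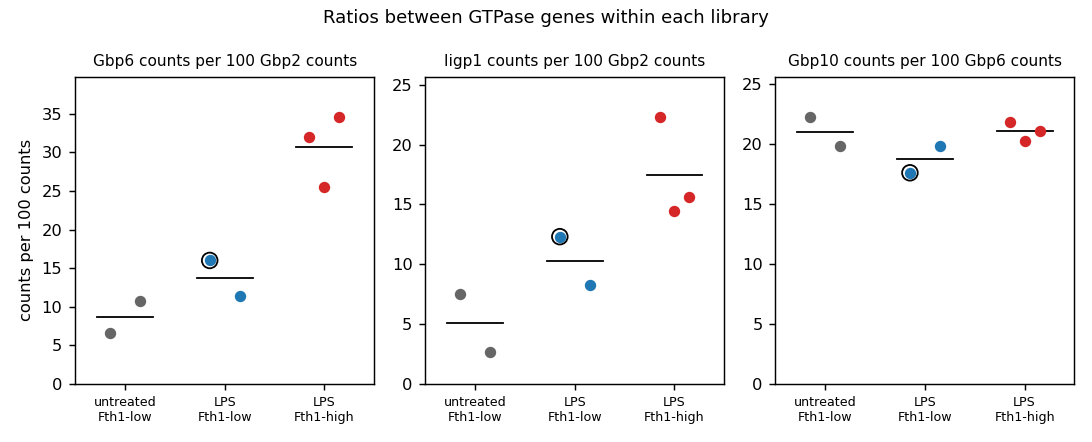
Counts of Gbp6 and of Iigp1 per 100 counts of Gbp2, and counts of Gbp10 per 100 counts of Gbp6, 1 point per library with a line at the group mean; each axis starts at 0 and the ringed point is LPS Fth1-low replicate 1. The 3 LPS Fth1-high libraries lie at 25.6 to 34.6 for Gbp6 over Gbp2, above the other 4, while Gbp10 over Gbp6 stays between 17.6 and 22.2.

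The 3 Irgm regulators had the smallest gains in Fth1-low cells. Their log2 differences from untreated cells, 1.20 to 1.75, lay below those of all 6 other genes, 2.10 to 4.66. In LPS Fth1-high cells this order did not hold in full, since Gbp3 (1.71) lay below Igtp (2.06).

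Irgm1, which mouse knockouts tie to resistance against mycobacteria and to autophagy, was the most abundant of the 9 before treatment, at 112 and 138 CPM. After LPS it had 285 and 344 CPM in Fth1-low and 305, 283 and 260.4 CPM in Fth1-high cells. LPS and untreated libraries did not overlap, and the gates did. It rose 2.53-fold in Fth1-low (log2 1.34 ± 0.22, adjusted p = 0.010) and 2.26-fold in LPS Fth1-high over untreated cells (1.18 ± 0.21, adjusted p = 0.0028). Between gates the difference was -0.16 (95% interval -0.61 to 0.29, adjusted p = 0.71).

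Igtp stood at 45.7 and 55.1 CPM in untreated libraries, at 129 and 203 CPM in LPS Fth1-low and at 254, 198 and 176 CPM in LPS Fth1-high libraries. The gates overlapped, and both were above the untreated libraries. Its rise was 3.37-fold in Fth1-low (1.75 ± 0.29, adjusted p = 0.0092) and 4.16-fold in LPS Fth1-high over untreated cells (2.06 ± 0.27, adjusted p = 5.2e-04). The gates differed by 0.30 (95% interval -0.27 to 0.88, adjusted p = 0.55).

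Irgm2, which in mouse macrophages restrains the caspase-11 response to LPS, was the 1 gene not called in Fth1-low cells. It had 32.9 and 45.7 CPM untreated, 104 and 79.8 CPM in LPS Fth1-low, and 122, 89.7 and 78.8 CPM in LPS Fth1-high libraries. Every LPS library was above both untreated ones. In Fth1-low cells the log2 difference was 1.20 ± 0.29 (95% interval 0.54 to 1.85), with an adjusted p of 0.061. In LPS Fth1-high over untreated cells it rose 2.47-fold (1.30 ± 0.26, adjusted p = 0.0058), and the gates differed by 0.11 (95% interval -0.49 to 0.70, adjusted p = 0.87).

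For these regulators single libraries decided calls. In Fth1-low cells the adjusted p for Irgm1 was 0.13 without untreated replicate 1 and 0.059 without untreated replicate 2, and for Igtp it was 0.11 and 0.064, and 0.059 without LPS Fth1-low replicate 2. Irgm2 passed in Fth1-low cells, at 0.042, without LPS Fth1-high replicate 1, and it missed in LPS Fth1-high over untreated cells, at 0.067, without untreated replicate 1. Direction stayed the same in each of these fits.

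Iigp1, the effector, was low in untreated cells and rose in both LPS groups. Untreated libraries had 6.45 and 2.33 CPM, LPS Fth1-low libraries 117 and 116 CPM, and LPS Fth1-high libraries 239, 166.5 and 128 CPM. The 3 groups did not overlap, and the Fth1-high libraries were the highest but spread widely. Iigp1 rose 25.4-fold in Fth1-low (4.66 ± 0.48, adjusted p = 6.8e-04) and 38.7-fold in LPS Fth1-high over untreated cells (5.27 ± 0.47, adjusted p = 5.8e-05). These sizes depend on the untreated libraries: the log2 differences were 5.63 and 6.25 without untreated replicate 1 and 4.19 and 4.79 without untreated replicate 2. Those of Gbp6 were 4.05 and 5.02, and 4.82 and 5.78, so which of these genes gained most turned on the untreated library left out. Between gates the log2 difference of 0.61 ± 0.38 was not called (95% interval -0.25 to 1.47, adjusted p = 0.41). Groups that do not overlap, with Fth1-high above Fth1-low, were found for 24.2% of all tested genes.

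**Figure D3:**
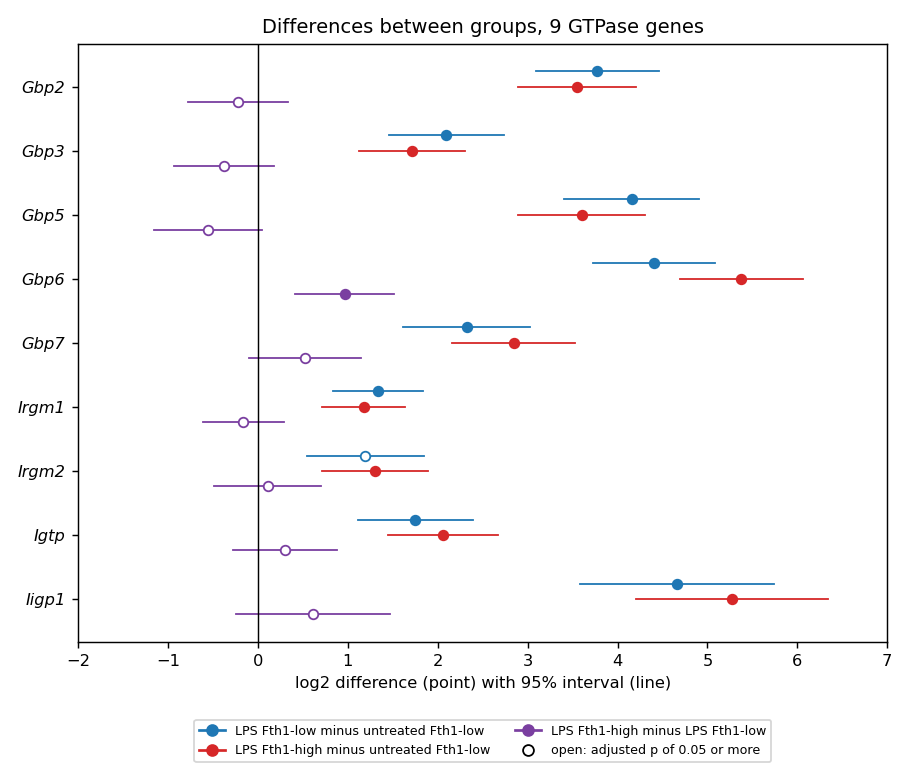
Log2 differences of the 9 genes in the 3 comparisons, with 95% intervals as lines; filled points have an adjusted p under 0.05. All differences from untreated cells are positive, from 1.18 to 5.37, and between the LPS gates Gbp6 at 0.97 is the filled point.

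LPS also changed the order of levels. Per kb of mean coding transcript length, levels in untreated cells ran from Irgm1 (57.6 CPM per kb) through Gbp3 (42.2), Gbp2 (34.4) and Igtp (26.9) to Irgm2 (11.3), Gbp7 (8.53), Gbp5 (7.58), Gbp6 (2.89) and Iigp1 (1.56). After LPS Gbp2 was first in both gates, at 469 ± 128 CPM per kb (SD, n = 2) in Fth1-low and 404 ± 69.1 (SD, n = 3) in Fth1-high cells, and Irgm2 was last, at 26.3 and 27.8 CPM per kb. These first and last places were the same when the longest transcript set the length, but Gbp3 moved from place 2 to places 3, 4 and 6 in the 3 groups. The summed level of the 9 genes was 404 and 475 CPM in untreated, 2513 and 3280.1 CPM in LPS Fth1-low, and 3224, 2954 and 2349 CPM in LPS Fth1-high libraries, so the gates overlapped in total. Irgm1 made up 27.7% and 29.1% of this sum in untreated libraries and 9.46% to 11.3% in LPS libraries, while Gbp2 went from 21.3% and 18.4% to between 33.2% and 43.0%.

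Relatives of the 9 genes gave a similar picture. Of 21 other interferon-induced or related GTPase genes tested, 10 were called higher and 0 lower in LPS Fth1-low over untreated cells (median log2 1.70). In LPS Fth1-high over untreated cells 12 were higher and 2 lower (median 1.58). Over all tested genes the shares were 2.99% and 0.629% in the first comparison and 12.4% and 11.9% in the second. Gbp4 rose by 4.25 and 4.31 on the log2 scale in those comparisons, Gbp8 by 4.19 and 4.51, and Gbp10 by 4.34 and 5.43. The effector genes Tgtp1 (3.18 and 3.49) and Tgtp2 (2.68 and 2.91) rose as well, though 79.9% and 84.9% of their read-length stretches occur in another gene and their counts cannot be assigned with certainty. Ifi47, a further immunity-related GTPase gene, rose by 1.70 and 1.02, the second call being lost without untreated replicate 1 (adjusted p = 0.062). Gbp9 was measured at 0.54 and 0.18 and was not called in either, nor was Mx1 (0.06 and -0.63), which encodes an antiviral GTPase induced by type I interferon. Mx2 (-1.29, adjusted p = 0.019) and Irgc1 (-2.57, adjusted p = 0.017) were the 2 called lower in LPS Fth1-high cells. Mx2 lost its call without untreated replicate 2 (adjusted p = 0.20) or LPS Fth1-high replicate 2 (0.054) or 3 (0.057), and Irgc1 without untreated replicate 1 (0.13) or LPS Fth1-high replicate 2 (0.060).

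Between the LPS gates edgeR called 1 of the 21 higher, Gbp10, and 0 lower, against 3.68% and 4.57% of all tested genes. At an unadjusted p under 0.05, 6 were lower, and DESeq2 and limma-voom each called 3 lower. Gbp10 had 1.25 and 1.86 CPM in untreated, 26.8 and 32.0 CPM in LPS Fth1-low, and 74.8, 59.8 and 59.7 CPM in LPS Fth1-high libraries, with no overlap among the 3 groups. It was 2.13-fold higher in Fth1-high cells (log2 1.09 ± 0.23, adjusted p = 0.019). As most of its sequence is shared with Gbp6 (81.9% of its stretches occur in another gene), the 2 results are not independent. Adjusted p was 0.069 and 0.072 without LPS Fth1-low replicate 1 or 2 and 0.053 without LPS Fth1-high replicate 2.

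**Figure D4:**
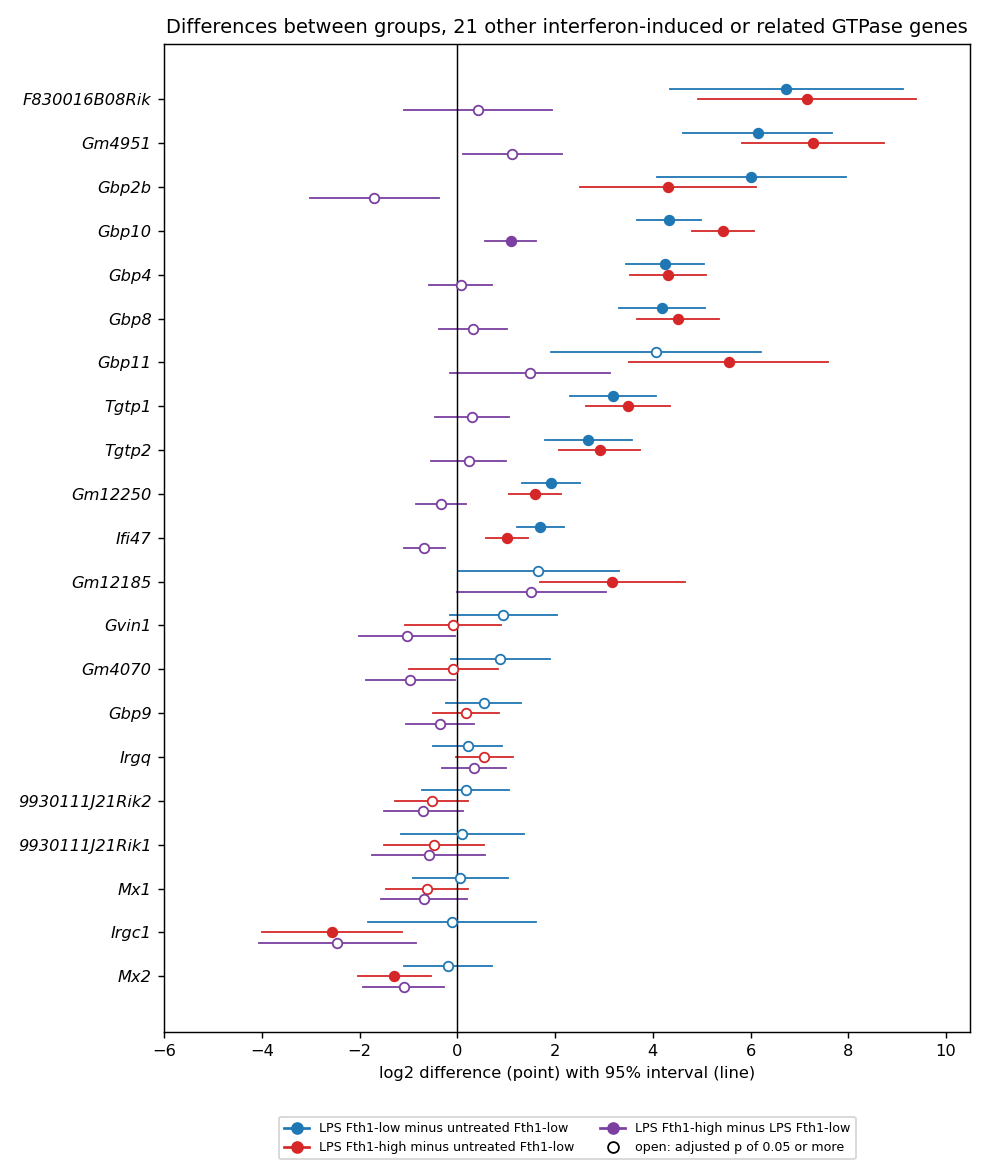
Log2 differences of 21 related GTPase genes in the 3 comparisons, with 95% intervals as lines, sorted by the difference in Fth1-low cells; filled points have an adjusted p under 0.05. Between the LPS gates Gbp10, at 1.09, is the filled point.

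The ligand, receptor and transcription factors upstream of the GTPases did not all follow them. Of 15 genes of interferon-gamma signalling, 4 were called higher and 0 lower in LPS Fth1-low over untreated cells (2.99% and 0.629% of all tested genes). In LPS Fth1-high over untreated cells 5 were higher and 3 lower (12.4% and 11.9%). In Fth1-high against Fth1-low cells after LPS 0 were higher and 2 lower (3.68% and 4.57%). Leaving out 1 library gave between 0 and 4 higher in the first of these, where the adjusted p of Irf1 (0.056), Socs1 (0.055), Socs3 (0.068) and Jak2 (0.33) all missed the threshold without untreated replicate 1. The numbers called lower fell to 1 in LPS Fth1-high over untreated cells without either untreated library or without LPS Fth1-high replicate 2 or 3, and to 0 between gates without LPS Fth1-high replicate 2 or 3. DESeq2 and limma-voom each called 1 lower in LPS Fth1-low over untreated cells, and DESeq2 called 1 higher between gates. Ifng, the gene of the ligand, had between 0 and 26 counts per library, and the 0 in LPS Fth1-low replicate 1 allows up to 5.02 CPM at its depth. The T and NK cell markers, genes of the usual sources of interferon-gamma, summed over 20 genes to 81.8 to 126 CPM in untreated, 82.2 to 203 CPM in LPS Fth1-low and 18.1 to 59.3 CPM in LPS Fth1-high libraries. Cd3e had 6 to 144 counts per library, and Ncr1 had 0 counts in LPS Fth1-high replicate 1. The part of such cells in the results was not tested.

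Ifngr1, the ligand-binding receptor chain, fell in LPS Fth1-high cells. It had 1095 and 1010.1 CPM in untreated, 288 and 568 CPM in LPS Fth1-low, and 168, 192 and 195 CPM in LPS Fth1-high libraries, without overlap among the groups. The log2 difference was -2.51 ± 0.28 from untreated cells (adjusted p = 1.8e-04) and -1.23 ± 0.27 between the gates (adjusted p = 0.024). In LPS Fth1-low cells it was -1.28 and not called (adjusted p = 0.058), but it was -1.89 and called without LPS Fth1-low replicate 2 (adjusted p = 0.016). That difference between gates was not called without LPS Fth1-low replicate 2 (-0.63, adjusted p = 0.11) or without any of LPS Fth1-high replicates 1 (0.065), 2 (0.061) and 3 (0.071). Ifngr2, the second receptor chain, was not called in any comparison, with log2 differences from -0.20 to 0.37.

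Irf1, which encodes a factor that binds the ISRE, was highest in LPS Fth1-low cells. It stood at 241 and 259 CPM in untreated, 827 and 865 CPM in LPS Fth1-low, and 481, 397 and 337 CPM in LPS Fth1-high libraries, so all 3 groups were apart. It rose by 1.76 ± 0.24 on the log2 scale in Fth1-low cells (adjusted p = 0.0034) and after LPS was 2.09-fold lower in the Fth1-high gate (-1.06 ± 0.21, adjusted p = 0.014). The last call was lost without LPS Fth1-high replicate 2 (adjusted p = 0.056) or 3 (0.072).

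Among 28 other interferon-gamma targets, none of them a GTPase gene, 14 were called higher and 0 lower in LPS Fth1-low over untreated cells (median log2 1.46). In LPS Fth1-high over untreated cells 26 were higher and 0 lower (median 1.64). Over all tested genes the shares were 2.99% and 0.629% in the first comparison and 12.4% and 11.9% in the second. Between gates 3 were higher and 4 lower (median 0.20), against 3.68% and 4.57% of all tested genes. Without LPS Fth1-low replicate 1 this became 1 and 3, and without LPS Fth1-low replicate 2 it became 2 and 2. Other tools called more, with DESeq2 giving 23 higher in the first comparison and, like limma-voom, 6 higher between gates, while 0 were lower than in untreated cells by either. Cxcl10, a chemokine for CXCR3-bearing T cells, had 33.6 and 36.0 CPM in untreated, 926 and 838 CPM in LPS Fth1-low, and 342, 421 and 258 CPM in LPS Fth1-high libraries, and it was 2.59-fold lower in Fth1-high cells (log2 -1.37 ± 0.23, adjusted p = 0.0071), a call made with each library left out. Il18bp, the secreted inhibitor of interleukin-18, went the other way, with 80.4 and 60.8 CPM in LPS Fth1-low and 219, 189.6 and 153 CPM in LPS Fth1-high libraries (log2 1.45 ± 0.25, adjusted p = 0.0081). Without LPS Fth1-low replicate 2 its adjusted p was 0.066.

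Of 28 genes taken as type I interferon-stimulated, 2 were called higher and 0 lower in LPS Fth1-low over untreated cells (median log2 0.31), Isg15 (1.53) and Oasl1 (2.09). Of all tested genes 2.99% were called higher and 0.629% lower there. DESeq2 called 5 of the 28 higher, and 0 were lower at an unadjusted p under 0.05. In LPS Fth1-high over untreated cells 6 were higher and 1 lower (median 0.38), where 12.4% and 11.9% of all tested genes were. Between gates 1 was higher, Bst2 (1.23), and 0 lower (median -0.01), where 3.68% and 4.57% of all tested genes were. At an unadjusted p under 0.05, however, 2 were lower, and DESeq2 called 1 lower. With 1 library left out, the first number ranged from 0 (leaving out replicate 1 of either the untreated or the LPS Fth1-low group) to 3, and the second from 2 (without untreated replicate 1) to 9 (without untreated replicate 2). Bst2 was not called without either LPS Fth1-low library or without LPS Fth1-high replicate 3. No test of the difference between this list and the GTPases was made.

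Marker lists were summed to describe what the sorted cells held, and their part in the GTPase results was not tested. Of 12 monocyte markers, 4 were called higher and 7 lower in LPS Fth1-high over untreated cells (12.4% and 11.9% of all tested genes). In LPS Fth1-low over untreated cells the numbers were 2 and 2 (2.99% and 0.629%). In Fth1-high against Fth1-low cells after LPS they were 1 and 5 (3.68% and 4.57%). With 1 library left out the numbers called lower were 6 to 7, 1 to 2 and 5 to 6, and those called higher 1 to 4, 1 to 2 and 0 to 1, the first falling to 1 without untreated replicate 1 and 2 without untreated replicate 2. Spn, which encodes CD43, had 778 and 821 CPM in untreated, 161 and 273 CPM in LPS Fth1-low, and 38.9, 42.0 and 47.0 CPM in LPS Fth1-high libraries. Other markers of the list went the other way. Group means in the same order were 59.4, 192 and 247 CPM for Fcgr4 and 914, 1389 and 2196 CPM for Cd14. Summed over 14 neutrophil markers, levels were 471 to 495 CPM in untreated, 698 to 740.0 CPM in LPS Fth1-low and 384 to 417 CPM in LPS Fth1-high libraries. Of the 11 neutrophil markers tested, 8 were higher and 3 lower in LPS Fth1-low than in untreated cells (median log2 0.82). There 1 was called higher and 0 lower (2.99% and 0.629% of all tested genes). In LPS Fth1-high over untreated cells 1 was called higher and 2 lower (12.4% and 11.9%). Between the gates 1 was higher and 10 lower in Fth1-high cells (median -1.88), with 0 called higher and 3 lower (3.68% and 4.57%). Csf3r alone, named after its values were seen, made up much of the neutrophil sums. It had 299 and 356 CPM in untreated, 497 and 366 CPM in LPS Fth1-low, and 330, 272 and 297 CPM in LPS Fth1-high libraries.

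Sums over 12 alveolar macrophage markers were 1892 to 2054, 3524 to 6178 and 612 to 2029.6 CPM in the same order, and Chil3 alone, named after its values were seen, made up 3189 and 5805 CPM of those in LPS Fth1-low libraries. The other markers did not share that direction, as 5 of the 11 tested were higher and 6 lower in LPS Fth1-low than in untreated cells (median log2 -0.29). There 0 were called higher and 0 lower, against 2.99% and 0.629% of all tested genes. In LPS Fth1-high over untreated cells 1 of the 11 was called higher and 4 lower (12.4% and 11.9%). Between the gates 0 were called higher and 2 lower (3.68% and 4.57%). Sums over 10 dendritic cell markers were 160.0 to 167, 108 to 119 and 21.3 to 29.0 CPM. Their median log2 difference in LPS Fth1-low over untreated cells was 0.36. There 1 marker was called lower, Cd209a (53.4 to 3.83 CPM on average), and 0 higher, against 0.629% and 2.99% of all tested genes. Among the 10, 4 were called lower and 0 higher in LPS Fth1-high over untreated cells (11.9% and 12.4%). Likewise 4 were called lower and 0 higher between the gates (4.57% and 3.68%), where the median log2 difference was -1.99. For B cells (8 markers, 44.5 to 87.7, 21.5 to 132 and 20.7 to 60.2 CPM), endothelial cells (10 markers, 183 to 502, 205 to 311 and 60.5 to 249 CPM) and epithelial cells (10 markers, 6.43 to 831, 31.8 to 139 and 17.1 to 87.7 CPM) the sums overlapped among groups, with Cdh5 at 12 to 1615 and Epcam at 0 to 41 counts. Untreated replicate 1 had the highest epithelial and endothelial sums of all libraries, 831 and 502 CPM, against 6.43 and 183 CPM in untreated replicate 2. Whether this bears on the calls that turned on untreated replicate 1 was not tested. In sorted bulk samples such as these, a larger share of expressing cells and more RNA per cell cannot be told apart.

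Among the 5 genes outside the list whose log2 levels over the 7 libraries were most like the mean profile of the 9 were Gbp4 (Pearson r = 0.998), Il4ra (0.992), Upp1 (0.991) and Inpp5b (0.990). In each of these 4 genes, as in the 9, both untreated libraries lay below all 5 LPS libraries, so r over the 7 libraries is given as a description. Upp1, a uridine phosphorylase, had 1.33 and 1.31 CPM in untreated, 60.3 and 67.0 CPM in LPS Fth1-low, and 63.3, 63.3 and 53.4 CPM in LPS Fth1-high libraries.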

How the data were processed

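Sequencing libraries were stranded, made from 25 ng of RNA with 15 cycles of PCR and read as pairs of 58 bp, per the labels' protocols. The deposited values are whole-number counts per gene; the submitters' processing notes name DRAGEN, DESeq2 and build mm10, and neither versions nor annotation nor counted strand is given in the sources used here. All 7 sample columns were used and 0 were left out.

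Libraries were grouped by the labels (n = 2, 2 and 3). One 3-group model was fitted with edgeR 4.0.16 in R 4.3.3 (TMM scaling, filterByExpr, robust quasi-likelihood F test), with Benjamini-Hochberg adjustment over all 13665 tested genes and a threshold of 0.05. Standard errors are the log2 difference over the square root of F, and 95% intervals use the moderated degrees of freedom. The script was tested on simulated data. Alternatives were DESeq2 1.42.0, limma-voom (limma 3.58.1), other scaling and filtering, thinning, a replicate block, summed copies and leaving out each library. A count of 0 was given an upper limit of 3 counts, which covers counting error only.

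Genes named besides the 9 GTPases are up to 4 with the smallest adjusted p per list and comparison, the related GTPases, fixed marker, ligand, receptor and factor genes, and the 5 most similar profiles (mean of at least 10 CPM, prior count 2). The GTPases and the lists were chosen with earlier results of these data known. GENCODE transcripts and RefSeq promoters supplied positions, read-length stretches and sequences. Some genes covered by the naming rule are not reported here.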

Additional observations from a re-analysis of the deposited data

How the results depend on the processing

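The numbers of GTPase genes called higher were 1, 8 and 9 in Fth1-high against Fth1-low cells after LPS, LPS Fth1-low over untreated cells and LPS Fth1-high over untreated cells. With other scaling, tests, filters, samples in the fit, thinning, rRNA genes left out or a replicate block, they were 1, 8 to 9 and 9, and with each library left out 0 to 1, 6 to 9 and 8 to 9. The 6 arose without either untreated library. None was called lower in any setting. Irgm2 in LPS Fth1-low over untreated cells passed with the DESeq2 Wald test (adjusted p = 0.0048), no filter (0.021), only the groups compared (0.033), thinning (0.0055) and the replicate block (log2 1.19, adjusted p = 0.011). Between libraries of the same replicate number, deviations from group means correlated at -0.04 to 0.29. In a group of 2 libraries these deviations mirror each other, so the values cannot settle whether the numbers mark pairs. Under the replicate block Gbp6 differed between gates by 1.04 (adjusted p = 0.021).

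Between the gates, replacing Gbp7 (0.52) by the sum of its chromosome 3 cluster, of which Gbp2 is the largest part, gave -0.22, a value of the cluster and not of Gbp7, which alone was 0.26 to 0.88 with single libraries left out. Direction turned for genes near 0. With single libraries left out the ranges were -0.50 to 0.10 for Gbp2, -0.74 to 0.12 for Gbp3 and -0.094 to 0.25 for Irgm2, the turns coming without LPS Fth1-low replicate 2 (0.10, 0.12 and -0.093) and, for Irgm2, without LPS Fth1-high replicate 1 (-0.094). The cause was not tested. Depth limits LPS Fth1-low replicate 1 most, where 1 count equals 1.67 CPM, and the comparison within Fth1-low cells rests on 2 libraries a side.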

Other observations

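Of 18 genes for partners of the GTPases and for autophagy, 0 were called in LPS Fth1-low over untreated cells (edgeR). Of all tested genes 2.99% were called higher and 0.629% lower there. In that comparison 2 of the 18 had an unadjusted p under 0.05, and neither DESeq2 nor limma-voom made a call. In LPS Fth1-high over untreated cells 4 were higher and 0 lower, against 12.4% and 11.9% of all tested genes. Fewer of the 18 were called higher there without either untreated library. The 4 included Sqstm1, an autophagy receptor (log2 1.19), and Atg5, which serves the conjugation of LC3-like proteins (0.95). Without untreated replicate 2 both calls were lost, with adjusted p of 0.074 for Sqstm1 and 0.093 for Atg5. Between the LPS gates 3 were higher, Gabarapl1 (1.05), Atg5 (0.89) and Sqstm1 (0.94), and 0 lower, against 3.68% and 4.57% of all tested genes. After leaving out replicate 2 or 3 of LPS Fth1-high 0 were called. Without LPS Fth1-low replicate 1 the log2 differences of the 3 were 0.99, 0.73 and 0.65.

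Casp4, the mouse gene of caspase-11, had 65.8 and 66.6 CPM in untreated, 132 and 115 CPM in LPS Fth1-low, and 65.0, 60.1 and 65.7 CPM in LPS Fth1-high libraries. After LPS it was 1.93-fold lower in the Fth1-high gate (log2 -0.95 ± 0.18, adjusted p = 0.012), a call lost without LPS Fth1-high replicate 2 (0.063). Its rise of 0.89 in LPS Fth1-low over untreated cells (adjusted p = 0.043) was called in 1 of 7 fits with a library left out, the one without LPS Fth1-low replicate 2, and in the others the adjusted p was 0.066 to 0.25.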
